A study of Mus musculus with 2 samples.

Results

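The genes described here form the Neurog2-Eomes-Neurod-Tbr1 cascade, the succession of factors through which a cortical progenitor becomes a glutamatergic neuron. Its 7 members (Neurog2, Rnd2, Eomes, Neurod1, Neurod2, Neurod6 and Tbr1) were taken as every probe set whose only gene symbol in GEO's platform annotation was one of these names. They are 7 of the 8251 genes on the array that could be named in this way, and they were measured by 8 probe sets, 2 for Eomes and 1 for each other gene. All 7 genes and all 8 probe sets passed the signal filter, which dropped probe sets whose mean log2 signal was under the 40th percentile, or roughly 166, so no member was left out.

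The arrays held biotin-labelled RNA from the cerebral cortex of E14.5 mouse embryos of the NMRI strain, and the study looked for genes downstream of the transcription factor Pax6. One group was homozygous Pax6-/- mutant cortex and the other was wild type cortex. Both were of the same strain, stage and tissue, and the sources used here do not name the mutant allele. Each genotype is 1 Affymetrix array; RNA of 3 embryos per genotype is mentioned, but not whether it was pooled on each array. The differences below therefore lack any check against replicates, and neither p-values nor SDs between embryos can be given.

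In the embryonic cortex, radial glia that express Pax6 divide at the ventricular surface and give rise to intermediate progenitors, which divide again and produce most glutamatergic neurons. Neurog2 is a basic helix-loop-helix (bHLH) proneural factor that starts this differentiation, and Rnd2 is a small GTPase that Neurog2 switches on to let newborn neurons migrate. Eomes, also called Tbr2, is the T-box factor that marks intermediate progenitors. The bHLH factors Neurod1, Neurod2 and Neurod6 follow in late progenitors and postmitotic neurons, and the T-box factor Tbr1 specifies early-born deep-layer neurons. Binding of Pax6 to regulatory sequence of Neurog2 is known from earlier work in mouse.

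Promoter sequences from RefSeq (GRCm38.p6), covering 250 bases before to 50 bases after the gene's start, were found for 6 members, all but Rnd2. The windows were searched for the E-box, CANNTG, which bHLH factors bind. Of the 6, 4 are printed: the 3 members with a TATATAA run shortly before the start, and Neurod2, which has the most E-boxes. They are written 5′ to 3′ on the gene's own strand, with E-boxes and TATATAA in capitals. The windows are chr3:127632886-127633185 on the + strand for Neurog2, chr9:118477939-118478238 on the + strand for Eomes, chr2:79456587-79456886 on the - strand for Neurod1 and chr11:98329596-98329895 on the - strand for Neurod2.
Neurog2: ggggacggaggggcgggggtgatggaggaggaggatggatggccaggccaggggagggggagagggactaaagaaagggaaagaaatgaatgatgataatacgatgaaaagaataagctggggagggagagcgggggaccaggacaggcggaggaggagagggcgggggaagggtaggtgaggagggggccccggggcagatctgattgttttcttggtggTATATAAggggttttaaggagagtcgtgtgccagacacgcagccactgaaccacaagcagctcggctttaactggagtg
Eomes: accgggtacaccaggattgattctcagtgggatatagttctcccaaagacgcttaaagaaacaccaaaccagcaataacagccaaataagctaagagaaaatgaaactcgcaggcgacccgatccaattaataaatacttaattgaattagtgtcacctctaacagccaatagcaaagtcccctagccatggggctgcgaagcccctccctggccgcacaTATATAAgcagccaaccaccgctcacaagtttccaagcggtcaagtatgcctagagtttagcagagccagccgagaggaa
Neurod1: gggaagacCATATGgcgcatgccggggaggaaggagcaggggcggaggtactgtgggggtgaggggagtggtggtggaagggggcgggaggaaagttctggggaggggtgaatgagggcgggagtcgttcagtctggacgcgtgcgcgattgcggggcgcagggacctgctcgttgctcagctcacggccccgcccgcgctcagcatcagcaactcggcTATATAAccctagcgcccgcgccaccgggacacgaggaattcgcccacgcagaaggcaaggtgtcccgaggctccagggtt
Neurod2: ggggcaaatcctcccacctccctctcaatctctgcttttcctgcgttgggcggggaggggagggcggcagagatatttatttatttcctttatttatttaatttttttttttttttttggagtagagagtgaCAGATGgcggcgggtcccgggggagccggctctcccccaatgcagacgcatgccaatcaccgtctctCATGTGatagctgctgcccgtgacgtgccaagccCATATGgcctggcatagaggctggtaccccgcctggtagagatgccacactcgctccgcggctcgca

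Neurod2 had 3 E-boxes, CAGATG at 118, CATGTG at 51 and CATATG at 17 bases before the start. Neurod6 had 2, Neurod1 and Tbr1 had 1 each, and the Neurog2 and Eomes windows held none. Across all 32851 promoter windows of this length, 72.3% held at least 1 CANNTG (which reads the same on both strands) and 17.6% held at least 3, so E-boxes in 4 of 6 members do not set them apart from other promoters. CAGATG, searched on both strands as CAGATG or CATCTG and thus a subset of the E-boxes, was found in Neurod2 alone of the 6, and in 17.2% of all windows. The T-box half-site AGGTGTGA, with its complement TCACACCT, was in none of the 6 windows and in 1.28% of all. TATATAA, looked for after the sequences had been seen and searched on both strands with TTATATA, lay 29, 30 and 31 bases before the start of Neurog2, Eomes and Neurod1, against 3.24% of all windows that hold it anywhere. It overlapped no E-box. These matches describe letters in a window and are not binding sites.

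All 7 members had a lower signal on the Pax6-/- array, and the difference was largest for the brighter probe set of Eomes, in the middle of the cascade. Values are MAS5 signals, which MAS5, Affymetrix's algorithm, gives as 1 linear intensity per probe set. Folds and log2 ratios compare Pax6-/- with wild type after adding a pseudocount of 81.5 to both signals and centring on the median ratio, which makes the fold of a dim probe set smaller than the plain ratio. A technical spread stands beside them: how far the log2 ratios of 2 probe sets for 1 gene lie apart (SD of the gap over the square root of 2), among genes of similar signal. Differences between embryos are no part of it. In bulk tissue, fewer cells of a type and less RNA per cell cannot be told apart.

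The first step of the cascade, the proneural factor and its migration target, was lower by more than 2-fold. Neurog2 had a signal of 877 on the Pax6-/- array, against 3489 on the wild type array, so that the Pax6-/- signal was 0.251 of the wild type one. On the log2 scale the ratio was −1.94 (3.85-fold lower), and the technical spread at this signal was 0.38. Its rank from the lowest was 18 of the 5587 genes above the filter, and 5 to 73 over 7 alternative settings. Rnd2, the GTPase gene that Neurog2 switches on, had a signal of 2573 on the Pax6-/- array, against 6920 on the wild type array. Its log2 ratio was −1.44 (2.72-fold lower), with the same spread of 0.38, and its rank of 103 ran from 18 to 253 over those settings. Both genes were bright on both arrays, and changing the pseudocount moved neither ratio by more than the spread. Neurog2 was at −2.04 without a pseudocount and at −1.76 with one at the 50th percentile.

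Eomes, the intermediate progenitor factor, had the lowest log2 ratio of all 5587 genes above the filter. Its brighter probe set, designed on the sequence AB031037, gave 167 on the Pax6-/- array, against 2535 on the wild type array. The Pax6-/- signal was 0.0659 of the wild type one, and the log2 ratio was −3.44 (10.9-fold lower), with a technical spread of 0.54. The Pax6-/- value lay below that array's median signal of 284, which places Eomes among the dimmer probe sets there. The second probe set, designed on AW120579, gave 216 on the Pax6-/- array, against 671 on the wild type array, a log2 ratio of −1.39 (2.61-fold lower) with a spread of 0.72. Both probe sets were thus more than 2-fold lower in the mutant, but they differed in size by 2.06 on the log2 scale. Of the 894 genes with several probe sets past the filter, 20 showed a gap that wide between their 2 brightest, Eomes included. In 484 of the 894, genes with ratios near 0 among them, those 2 probe sets had ratios of the same sign. The other members have 1 probe set each, so their ratios have no such check. Averaged over both probe sets, the Eomes log2 ratio was −2.41. Its rank was between 1 and 3 from the lowest in the 7 alternative settings, the average over probe sets among them.

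The bHLH factors that follow were lower by smaller amounts. Neurod1, which is expressed in late progenitors and newborn neurons, had a signal of 289 on the Pax6-/- array, against 889 on the wild type array, a log2 ratio of −1.43 (2.70-fold lower) with a spread of 0.54. Neurod2, a factor of postmitotic glutamatergic neurons, had 1500.0 on the Pax6-/- array, against 2951 on the wild type array, a log2 ratio of −0.98 (1.98-fold lower) with a spread of 0.38. Neurod6, also called Nex, had 471 on the Pax6-/- array, against 947 on the wild type array, a log2 ratio of −0.94 (1.92-fold lower) with a spread of 0.54. Neurod2 and Neurod6 thus had about the same ratio and lay just short of the 2-fold mark. Over the alternatives their ranks ran from 188 to 531 for Neurod2 and from 316 to 399 for Neurod6, and that of Neurod1 from 74 to 142. Neurod2 and Neurod6 passed 2-fold in 1 of 7 alternatives, the one without a pseudocount, with log2 ratios of −1.03 for Neurod2 and −1.06 for Neurod6. Among those 7, the probe set rules could not move either gene, as each has 1 unsuffixed probe set. Settings with another filter are not among the 7. With no filter the count of members at least 2-fold lower was 6 in place of 5, so Neurod2, the lower of these genes, passed there as well.

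Tbr1, the last step, had a signal of 2405 on the Pax6-/- array, against 5088 on the wild type array. Its log2 ratio was −1.10 (2.15-fold lower), with a spread of 0.38, just past 2-fold. With quantile scaling it was −0.88 and with loess scaling −0.87, short of 2-fold, and its rank ran from 104 to 488 over the alternatives. A substantial Tbr1 signal remained on the Pax6-/- array, far above that array's median, in contrast to Eomes.

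**Figure D1:**
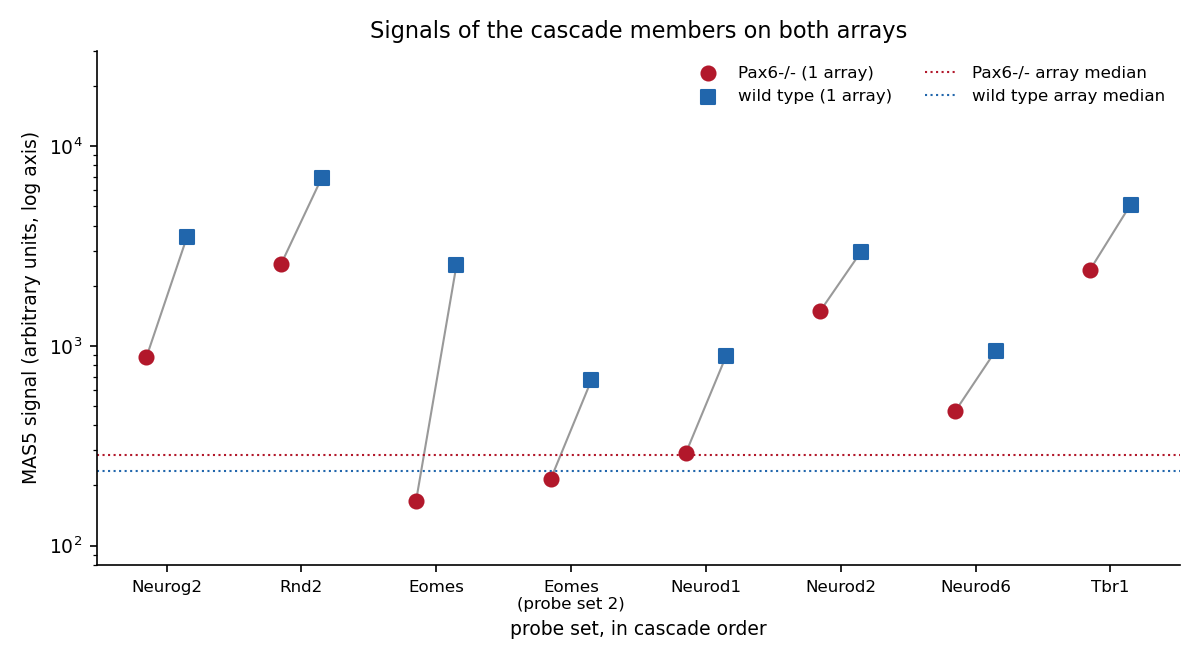
MAS5 signal (log axis) of each of the 8 probe sets of the cascade in its order, with the Pax6-/- array as circles, the wild type array as squares, a line joining the pair, and dotted lines at each array's median signal. Every Pax6-/- point lies below its wild type point, and only the Eomes points, at 167 and 216, lie below the Pax6-/- median of 284.

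Counted by gene, 5 of 7 members were past the 2-fold mark on the lower side on the Pax6-/- array, and 0 on the higher side. Over all 5587 genes above the filter, 5.48% were at least 2-fold lower, and 51.6% were lower by any amount, against 7 of 7 members. By probe set, 6 of the 8 were at least 2-fold lower, where the share over all named probe sets above the filter was 5.65%. The median log2 ratio of the members was −1.43, beside −0.02 over all genes above the filter. Without Eomes the median was −1.27. The genes were chosen with these results known, so the counts describe the members and are no independent evidence for the cascade.

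Ordered by log2 ratio, the members ran Eomes, Neurog2, Rnd2, Neurod1, Tbr1, Neurod2 and Neurod6. The gap between Eomes and Neurog2, 1.499, exceeded the combined technical spread of the pair, 0.66. That holds for the brighter Eomes probe set only: with the mean of both the gap was 0.47, inside the spread of 0.66, and by its second probe set alone Eomes, at −1.39, lay above Neurog2, Rnd2 and Neurod1. No other neighbours in the order above differed beyond their spread: the gap between Neurog2 and Rnd2 was 0.50 against a spread of 0.54, and the remaining gaps ran from 0.01 to 0.33. The ends of the remaining 6 did differ, since Neurog2 lay 1.002 below Neurod6, against a spread of 0.66. The early members, Neurog2, Rnd2, Eomes and Neurod1, had the 4 lowest ratios and the neuronal members, Neurod2, Neurod6 and Tbr1, the 3 highest, an order that rests on gaps smaller than the spread at its boundary, where Neurod1 and Tbr1 were 0.33 apart.

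**Figure D2:**
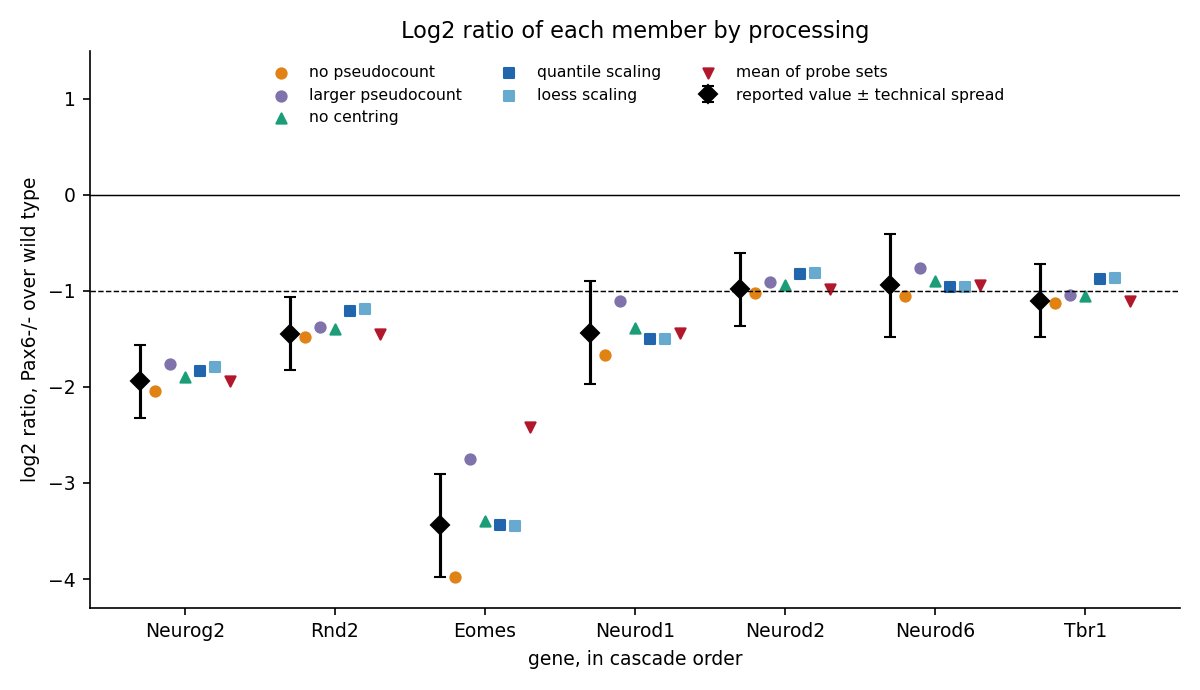
Log2 ratio of each member's brightest probe set, Pax6-/- over wild type, in cascade order; diamonds with bars are the reported values ± technical spread, other symbols the values under alternative processing, and the dashed line marks 2-fold lower. All symbols lie below 0, Eomes varies most, from −3.97 to −2.41, and Neurod2, Neurod6 and Tbr1 lie around the dashed line.

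Bright genes as a whole were somewhat lower on the Pax6-/- array, which matters for Rnd2, Neurod2 and Tbr1. These 3 lay in the top decile of genes by mean signal, whose median log2 ratio was −0.27, and Neurog2 in the next decile, with a median of −0.14. In the top decile, 3.40% of 559 genes were at least 2-fold lower, and Rnd2 was the third lowest, Tbr1 the 13th and Neurod2 the 20th of them. Relative to the median of its own decile, Rnd2 stood at −1.17, Tbr1 at −0.83 and Neurod2 at −0.71. Neurog2 was the second lowest of 559 genes in its decile, at −1.80 relative to its median. Eomes and Neurod6 shared a decile of intermediate signal with a median of 0.01, in which Eomes was the lowest and Neurod6 the 22nd lowest of 558. Neurod1 was the sixth lowest of 559 in its decile, at −1.53 relative to the median. All 7 members thus lay below the median of genes of like brightness, and the shift of bright genes was a larger part of the Tbr1 and Neurod2 ratios than of those of Rnd2 and Neurog2.

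**Figure D3:**
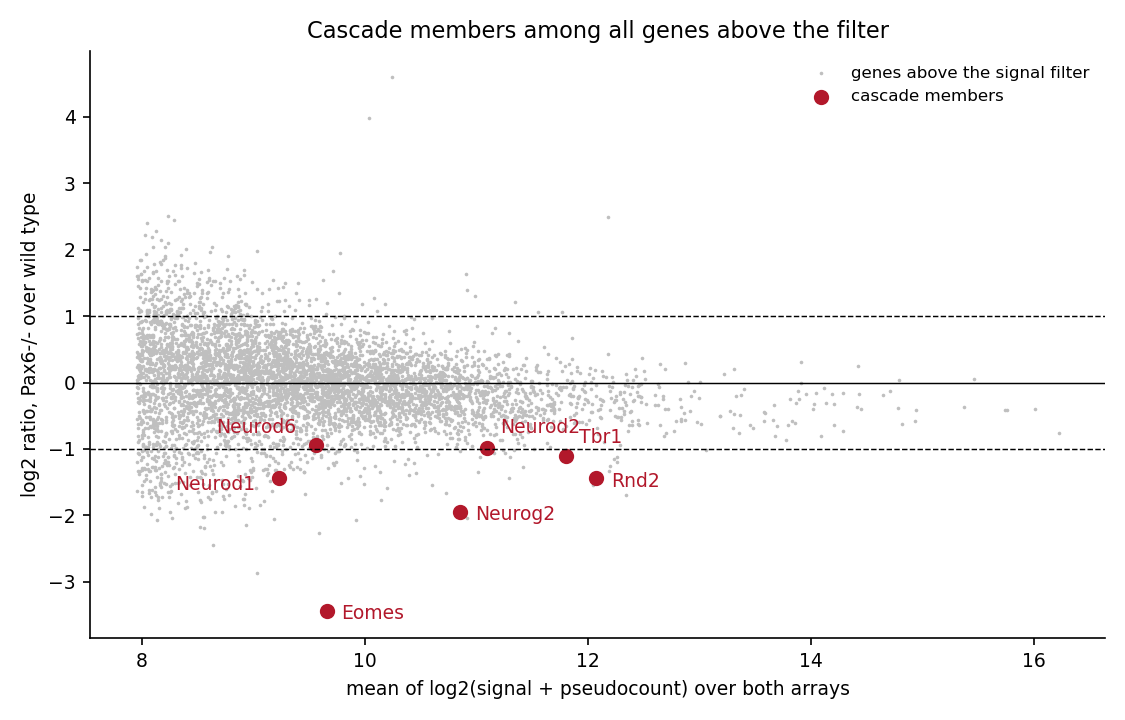
Log2 ratio, Pax6-/- over wild type, against the mean of log2(signal + pseudocount) over both arrays for the 5587 genes above the filter (grey) and the 7 members (red); dashed lines mark 2-fold. Eomes, at −3.44, and Neurog2, at −1.94, lie well below the cloud at their brightness, Rnd2 at its lower edge, and the other 4 within its lower part.

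Pax6, the mutated gene, was measured by 1 probe set, with 447 on the Pax6-/- array and 1169 on the wild type array, a log2 ratio of −1.29. The sources do not tell if the mutation removes the sequence under this probe set, so it is no firm check of the labels. The array medians were 284 for Pax6-/- and 237 for wild type, and the 2% trimmed means were equal, at 500.2 on both. Regional identity markers of the cortex were not analysed here, so the labelled tissue was not checked against them. Fezf2, a gene of deep-layer cortical neurons, was present at 2281 on the Pax6-/- array and 2913 on the wild type array.

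The closest relatives of the proneural members were dim. Neurog1, a second cortical proneural gene, had 111 on the Pax6-/- array and 103 on the wild type array by its brighter probe set, and by the other 26.9 on the Pax6-/- array and 235 on the wild type array. The 2 probe sets disagree, and both were below the filter. Neurod4 had 29.9 on the Pax6-/- array and 96.8 on the wild type array, and Neurog3 had 26.9 on the Pax6-/- array and 47.6 on the wild type array, all below the filter. Rnd1, Rnd3 and Tbx21 were not analysed here. No relative thus gave a signal high enough to set beside the members.

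Beyond the bHLH genes of the cascade, the other bHLH factors, partners and inhibitors lay on both sides of 0. Of the 18 genes in that list, 15 were on the array and 10 above the filter, of which 1 was past 2-fold on the lower side and 0 on the higher, against 5.48% and 5.05% of all genes above the filter, with a median log2 ratio of 0.08. The exception was Id4, which encodes an inhibitor that binds bHLH partners, with 884 on the Pax6-/- array against 2881 on the wild type array, a log2 ratio of −1.66. The next largest ratios were those of Tcf3, which encodes the E-protein partner of proneural factors, at 0.71, and of the neuronal bHLH gene Nhlh1, at 0.53. Tcf4 and Tcf12, further E-protein genes, were at −0.31 and 0.16. The Notch effectors Hes1 and Hes5, which repress proneural genes, were at 0.00 and −0.25, and Hes6, itself a target of neurogenins, at 0.37.

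Among genes of intermediate progenitors and newborn neurons, several lay as low as the cascade members. Of 20 genes listed, 16 were on the array and 15 above the filter. Of those 15, 6 were past 2-fold on the lower side, against 5.48% of all genes above the filter, and 0 on the higher side, against 5.05%. The median log2 ratio was −0.68. Like the members and the other lists, this list was chosen with earlier results of these data known. Its counts describe the genes listed and are no independent evidence. Tfap2c, a transcription factor gene of intermediate progenitors, had 541 on the Pax6-/- array against 1979 on the wild type array, a log2 ratio of −1.77. The semaphorin receptor gene Nrp1 was at −1.53, with its second probe set, below the filter, at 0.08. Mfap4, which encodes an extracellular microfibril protein, was at −1.42, with 93.0 on the Pax6-/- array against 371 on the wild type array. It thus passed the filter only through its wild type signal. Its other probe set, also above the filter, was at 0.04, so this call rests on 1 probe set. The somatostatin receptor gene Sstr2 was at −1.39, with the other 2 probe sets at −0.85 and −0.62. Cbfa2t2, which encodes a transcriptional corepressor, was at −1.30 and its second probe set at −1.11, although that one was below the filter. The Notch ligand gene Dll1, a direct target of Neurog2, was at −1.21; its second probe set was near background on both arrays. On the other side, 4 of the 15 were higher on the Pax6-/- array. The highest of them was Insm1, a zinc finger gene of intermediate progenitors, at 0.42. Its signal was 5384 on the Pax6-/- array and 3868 on the wild type array. Insm1 was chosen after its values were seen. Without probe sets that carry a letter suffix for shared or special probes, 4 genes in place of 6 were at least 2-fold lower, and the median was −0.41. Over all genes above the filter the number at least 2-fold lower was then 282, in place of 306.

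Other genes of cortical glutamatergic neurons lay on both sides of 0. Of 25 listed, 16 were on the array and 12 above the filter. Among the 12, 5 were lower and 7 higher, 0 were past 2-fold in either direction, and the median log2 ratio was 0.03. With 5.48% of all genes past 2-fold on the lower side and 5.05% on the higher, a count of 0 among 12 is near the background. The largest differences were those of Sox5 at −0.97, Dab1 at −0.91 and Cux1 at −0.77. Sox5, a deep-layer transcription factor gene, had 109 on the Pax6-/- array against 280 on the wild type array. It thus passed the filter only through its wild type signal. Dab1 is the Reelin signal adaptor gene, and Cux1 an upper-layer gene whose second probe set was at −0.16. Pou3f3, at −0.65, and Fezf2, at −0.39, were the other lower genes. The highest was Nr4a2 at 0.74, with its second probe set, below the filter, at −0.02. Reln, also in the Cajal-Retzius list, was at 0.02. The median mixes these genes and does not describe the deep-layer and upper-layer genes alone. Without a pseudocount 2 of the 12 were at least 2-fold lower, as were 437 of all genes above the filter, in place of 306. Tbr1, Neurod2 and Neurod6 thus lay below the middle of the other neuronal genes measured, a difference that was not tested.

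**Figure D4:**
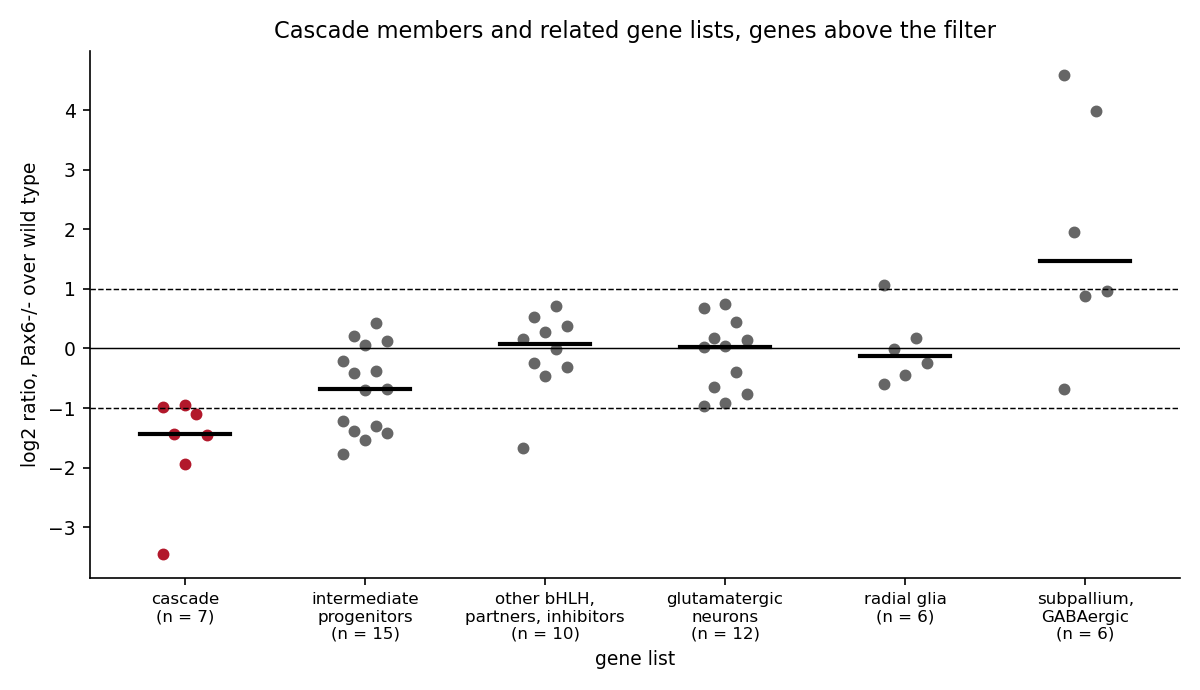
Log2 ratio, Pax6-/- over wild type, of genes above the filter in the cascade (red) and in 5 gene lists (grey), 1 point per gene, with a bar at the median and dashed lines at 2-fold. The cascade and the intermediate progenitor genes have medians of −1.43 and −0.68, the other bHLH and glutamatergic neuron lists lie around 0, and the subpallial list has a median of 1.46.

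Marker genes of several cell types also differed between the arrays. Their source within the dissected tissue and their part in the lower cascade signals were not tested. Of the 11 subpallial and GABAergic markers, 8 were on the array and 6 above the filter, of which 3 were past 2-fold on the higher side and 0 on the lower, against 5.05% and 5.48% of all genes above the filter. Those 3 were the homeobox genes Dlx1, Dlx2 and Dlx5, at log2 ratios of 4.59, 3.99 and 1.96, and the summed signal of the 8 was 12394 on the Pax6-/- array, against 1614 on the wild type array. Without these 3 genes the sums were 1533 on the Pax6-/- array and 1160 on the wild type array. Gad1 and Slc32a1, genes of GABA synthesis and vesicular transport, were at 0.97 and 0.88, just short of 2-fold higher. The interneuron gene Lhx6 was at −0.68, and Gad2 and Isl1, below the filter, at 0.10 and 0.23. Without a pseudocount 5 of the 6 were at least 2-fold higher, as were 447 of all genes above the filter. Dlx1 and Dlx5 passed the filter only through their Pax6-/- signal. The 6 radial glia markers, all above the filter, summed to 14157 on the Pax6-/- array and 12189 on the wild type array, but 4 of the 6 were lower and their median log2 ratio was −0.12. The higher sum rested on Sox2, at 1.06 by its 1 probe set, without which the sums were 9115 on the Pax6-/- array and 9884 on the wild type array. The microglial markers, 4 of 6 above the filter, summed to 3323 on the Pax6-/- array and 1373 on the wild type array. Csf1r and C1qb were at least 2-fold higher there, at 1.54 and 1.14, but their second probe sets were at 0.34 and −0.93. The vascular markers, 3 of 6 above the filter, summed to 1712 on the Pax6-/- array and 949 on the wild type array, with Cldn5 at 1.06. Meningeal markers, 3 of 9 above the filter, summed to 3184 and 2777 in Pax6-/- and wild type, erythroid ones, 3 of 5, to 6473 and 8522, and Cajal-Retzius ones, 2 of 4, to 1656 and 1691. Of the genes of these 3 lists above the filter, 0 were past 2-fold, against 5.48% lower and 5.05% higher among all genes above the filter. Below it, the meningeal gene Lum was at −1.08. The meningeal sum rested on Col1a2, without which it was 748 on the Pax6-/- array and 949 on the wild type array. In the meningeal list the defining transcription factor gene Foxc1 was near background, at 8.93 on the Pax6-/- array and 3.78 on the wild type array, and no marker of any list was at the lowest signal of 1.0.

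Chromosomal neighbours of the members lay on both sides of 0. Of the 14 genes above the filter that lie nearest to the members, 1 on each side of each, 1 was past 2-fold on the lower side and 1 on the higher, with a median log2 ratio of 0.12, counts near the 5.48% and 5.05% over all genes. The first of these was Med1, a Mediator subunit gene, at −1.24, the nearest gene above the filter on 1 side of Neurod2. The other was G6pc, a glucose-6-phosphatase gene, at 1.19, the nearest such gene on 1 side of Rnd2. Genes below the filter or not measured may lie between them and the members. Med1 and G6pc were chosen after their values were seen. Neurod1 and Tbr1 lie on the same chromosome, 2, and Rnd2 and Neurod2 on chromosome 11, but neither pair is adjacent.

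Genes with the nearest log2 ratio to each member, over the 2 arrays, were Snrk and Rab3d for Neurog2, Rax and Bzw2 for Rnd2, Fgfr1 and Mau2 for Neurod1, Ldah and Pheta1 for Neurod2, Pex6 and Faap20 for Neurod6, and H1f6 and Reg1 for Tbr1, all within 0.0125 of the member. For the brighter Eomes probe set the nearest were Ada and Snd1, 0.58 and 0.99 away, so no gene above the filter had a ratio close to it. That holds for this probe set only. As the mean of its probe sets Eomes was at −2.41, close to Snd1 at −2.45, and its second probe set was at −1.39. With 2 arrays this likeness is in 1 number only. Snrk, Rab3d, Rax, Ada, Snd1, Ldah, H1f6 and Reg1 passed the filter only through their wild type signal, with Pax6-/- signals below about 166.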

How the data were processed

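The deposited values are MAS5 signal intensities on a linear scale, 1 per probe set and array. The submitters' processing notes name MAS5; no version, scaling target or detection call is given in the sources used here. Of 12488 probe sets, 10855 had 1 gene symbol in GEO's platform annotation, 396 had several and 1237 none; of the 10855, 10839 matched the GRCm38.p6 gene table by gene ID and 0 symbols changed. Where several probe sets measured a gene, the brightest by mean log2 signal stood for it. The pseudocount was the 25th percentile of all signals; ratios were centred by 0.05, their median over probe sets at or above the 40th percentile of mean log2 signal (about 166), which was also the filter and left 5587 genes.

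With 1 array per genotype nothing was tested, and genes are described by size, with 2-fold as the threshold. Precision is limited by the number of arrays. The technical spread came from 894 genes with several probe sets past the filter, in 3 equal groups by signal. The members and gene lists were chosen with earlier results of these data known. Genes named are the members, Pax6, the members' paralogs, and list and marker genes past 2-fold. Also named are the 3 largest of each of the 3 pathway lists and the 2 genes nearest in log2 ratio to each member. Insm1, the flanking genes and those given for context were named after their values were seen. The context genes were Fezf2, Pou3f3, Nr4a2, Reln, Foxc1, Lum, Col1a2, Gad1, Slc32a1, Lhx6, Gad2, Isl1, Tcf4, Tcf12, Hes1, Hes5 and Hes6. Alternatives were other pseudocounts, filters, scalings (quantile; loess with fraction 0.4 and 3 iterations), probe set rules and thresholds. The steps were tested on simulated arrays. Calculations used pandas 2.3.3 and numpy 2.4.6 in Python 3.11.15, with loess from statsmodels 0.14.6, and figures were drawn with matplotlib 3.10.9.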

Additional observations from a re-analysis of the deposited data

How the results depend on the processing

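Each member's log2 ratio stayed below 0 in all 7 alternatives, and 47 of these 49 values moved by less than the technical spread. The exceptions were Eomes at −2.75 with a pseudocount at the 50th percentile and at −2.41 as the mean of its probe sets. Its second probe set alone, an alternative chosen after seeing the data, gave −1.39. Some of the 49 values could not move, by construction. No member's probe set carries a letter suffix, so leaving out suffixed probe sets changed no member. Averaging probe sets could change Eomes only. The ratio of Neurog2 ran from −2.04 to −1.76, Rnd2 from −1.48 to −1.19 and Neurod1 from −1.67 to −1.10. With a 3-fold threshold 2 members, Neurog2 and Eomes, were lower, and with 1.5-fold all 7. At 2-fold the count of 5 was 4 with quantile or loess scaling, 6 with no filter, which moves the centring, and 7 without a pseudocount. The members' median was −1.10 with the larger pseudocount, −1.21 with quantile and −1.19 with loess scaling. The median of the intermediate progenitor list was −0.41 without suffixed probe sets. Over all genes, the numbers at least 2-fold lower and higher were 306 and 282 as reported. They were 357 and 219 with quantile scaling, 370 and 204 with loess scaling, and 437 and 447 without a pseudocount. With the larger pseudocount they were 128 and 90, with no filter 526 and 498, and with the 60th-percentile filter 114 and 97. They were 844 and 785 at 1.5-fold and 68 and 58 at 3-fold. Why these values moved was not tested beyond what each setting changes by its construction. No paired analysis was possible because each genotype has 1 array. The background of the arrays was not examined; the Pax6-/- signals of Eomes lie between that array's 25th percentile, 90.2, and its median, 284.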
